A study of Mus musculus with 148 samples.

Results

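Lungs of tumor-bearing mice taken before any metastasis was found (Pre-MET, 3 mice) were compared with lungs of mice whose tumor had been removed and that stayed free of metastases (relapse-free, 6 mice). The plates were chosen by their status label and by the absence of a GFP sorting gate, which left 8 Pre-MET and 14 relapse-free plates out of 148 plates in the series. They held 1406 and 2904 annotated immune cells, that is 4310 of the 23425 in all. All 9 animals were female C57BL/6 mice carrying photoactivatable GFP (PA-GFP). The labels' protocol, given for the series and not for each mouse, describes an injection of EO771-tdTomato cells into the mammary gland at 8 weeks of age. EO771 is a syngeneic mouse mammary carcinoma line, here with a red fluorophore. Pre-MET lungs were collected with the primary tumor still in place. The status relapse-free stands for mice whose tumor was resected 3 weeks after injection and in which weekly CT imaging then found no metastases. When the relapse-free lungs were collected is not given in the sources used here, so that tumor presence, surgery, time since injection and age cannot be told apart. Whole lungs were dissociated and live CD31- CD45+ cells were sorted singly into the wells of plates.

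Lung monocytes come from the bone marrow through the blood. The classical or inflammatory kind expresses Ccr2, Ly6c2, Fn1 and Vcan and enters inflamed tissue, and the patrolling kind expresses Ace, Treml4 and Cx3cr1 and stays along the vessel wall. A distant tumor can release factors that mobilize myeloid cells before tumor cells settle in an organ, and natural killer (NK) and CD8 T cells are the lymphocytes known to kill such arriving cells. The lineage and subpopulation names used here are the annotation deposited with the cells, in which a name such as Mon Fn1 gives the lineage and a leading gene.

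The mouse was the replicate, with all its plates pooled, and a mouse had 148 to 743 immune cells. Only the limma-voom fit with batch as a term, described below, took 1 sum per mouse and batch. Median depth was 930 to 1086 unique molecular identifiers (UMIs, each standing for a captured transcript) per cell in Pre-MET mice and 691 to 1946 in relapse-free mice. The plates came from 6 sequencing batches, of which 2, SB99 and SB111, held both groups. All Pre-MET plates and the plates of relapse-free mice 6 and 7 were in these 2 batches, and each of the other 4 relapse-free mice had a batch of its own. Other plates of mice 6 and 7 were sorted with a GFP gate and were not compared. The labels give both mice as relapse-free, and whether they are among the animals that the study calls control mice is not given in the sources used here, so that the shares and the leading gene are also given without them. Relapse-free mouse 29 stood apart in yield, with 19.5% of its wells holding an annotated immune cell against 36.8% to 83.8% in the other mice. Pre-MET mice 8, 9 and 10 had 39.6%, 61.6% and 42.6%, and the relapse-free median was 62.4%. Median depth per T cell was 738 to 976 UMIs in Pre-MET mice and 622 to 2060 in relapse-free mice, where annotated cells had at least 500. Whether wells were lost evenly across lineages was not tested. The annotated lineages carried their own markers, with summed levels of 6 T cell markers of 3370 to 4610 CPM (the UMIs of a gene scaled to the total of the sum) in T cells of any mouse and of 6 NK cell markers of 3330 to 7210 CPM in NK cells. Total depth was 611346 to 738329 UMIs per Pre-MET mouse and 124372 to 1636381 per relapse-free mouse. No well identifier occurred on more than 1 plate, and in 88 wells that received no cell the median was 12.5 UMIs.

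Monocytes were the most abundant lineage in each Pre-MET lung, and T cells in each relapse-free lung. Monocytes made up 58.4%, 43.6% and 59.9% of the immune cells of Pre-MET mice 8, 9 and 10, against 16.9% to 26.1% with a median of 19.3% in the relapse-free mice. The groups lay well apart, at 54.0% ± 9.01 (SD, n = 3) and 20.2% ± 3.36 (n = 6), a difference of 33.8 percentage points. The exact permutation test over all 84 ways of splitting the 9 mice gave p = 0.0119, the smallest value it allows, and 0.0278 after Benjamini-Hochberg adjustment over the 7 lineages.

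T cells and NK cells took smaller shares in Pre-MET lungs. T cells were 21.7%, 23.5% and 16.9% of immune cells in the 3 Pre-MET mice, and 29.6%, 33.8% and 46.9% as lowest, median and highest in the relapse-free mice. NK cells were 5.09%, 6.84% and 2.06%, against 10.8%, 13.9% and 19.5%. In both lineages every Pre-MET mouse was below every relapse-free mouse, with means of 20.7% ± 3.43 against 35.5% ± 6.17 for T cells and 4.66% ± 2.42 against 14.7% ± 3.40 for NK cells (SD, n = 3 and 6). Each difference had an exact permutation p of 0.0119 and an adjusted p of 0.0278. The T cell difference missed the threshold without mouse 10 (exact p = 0.0714), and the NK cell difference did when only cells with at least 1000 UMIs were kept (exact p = 0.0952). With cell numbers fitted in edgeR instead, the log2 fold changes were 1.42 for monocytes (edgeR adjusted p = 0.00056), -0.78 for T cells (0.0162) and -1.66 for NK cells (0.00845).

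These 3 lineages were the ones past an unadjusted exact p of 0.05, 42.9% of the 7 tested. Neutrophils, short-lived phagocytes of the first response, did not separate the groups: they were 5.97%, 16.2% and 13.8% of Pre-MET cells and ranged from 0% to 25.0% in relapse-free mice (exact permutation p = 0.917). The 0% was mouse 29, in which 0 of 148 cells allows a share of up to 2.03%. Macrophages, most of them annotated Mac Cd9, numbered 8, 0 and 2 cells in Pre-MET mice and 4 to 43 in relapse-free mice. Their mean share was 0.727% ± 0.926 against 6.21% ± 6.52, with overlapping groups and an exact permutation p of 0.214, and 0 of 468 cells in mouse 9 allows up to 0.641%. B cells (5.34% against 6.41%) and dendritic cells (DCs, 2.63% against 4.23%) overlapped as well, with exact permutation p-values of 0.655 and 0.381.

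**Figure D1:**
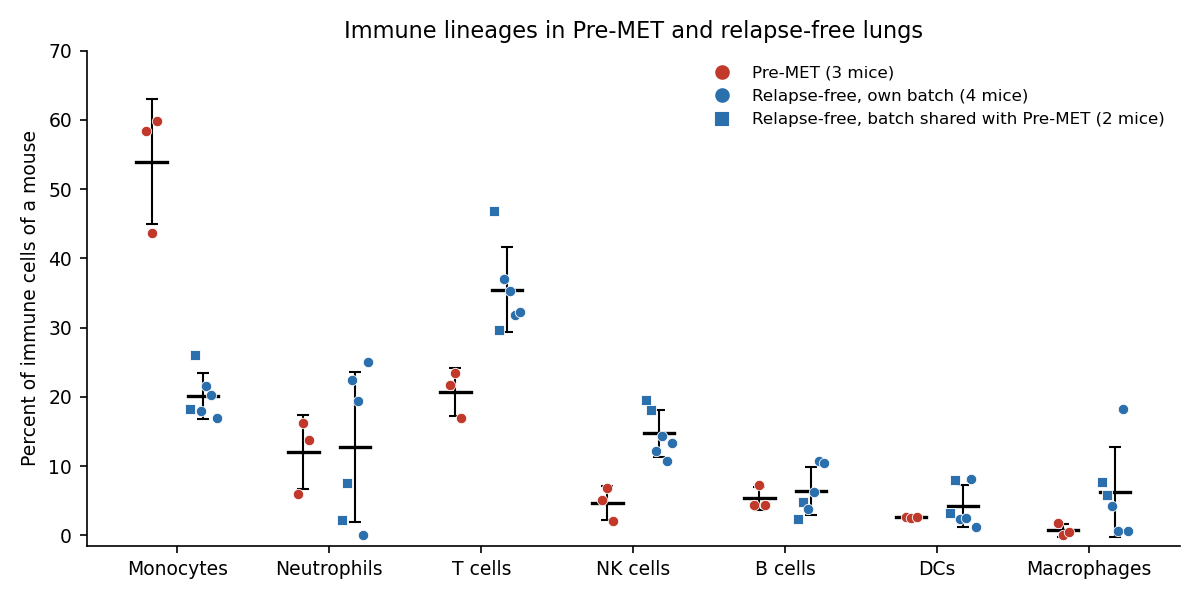
Share of each immune lineage among the immune cells of a mouse (percent, linear axis); red points are Pre-MET mice, blue circles relapse-free mice with a batch of their own, blue squares relapse-free mice 6 and 7, and bars the mean with 1 SD. Monocytes are above every relapse-free mouse in all 3 Pre-MET mice (43.6% to 59.9% against 16.9% to 26.1%), T and NK cells below, and neutrophils and macrophages overlap.

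The separation was also present within the 2 sequencing batches that held both groups. The only relapse-free animals there were mice 6 and 7, for which it is not known whether they are among the study's control mice. In batch SB111 monocytes were 56.2% and 55.1% of the immune cells of Pre-MET mice 8 and 10 and 15.6% and 26.1% of those of relapse-free mice 6 and 7. In batch SB99, where mouse 6 was the only relapse-free animal, they were 60.4%, 43.6% and 65.1% in mice 8, 9 and 10 and 20.2% in mouse 6. T cells in SB111 were 18.4% and 17.3% against 46.8% and 29.6%, and NK cells 4.15% and 0.787% against 19.4% and 18.1%. The order of the groups was thus the same in each batch, although 2 mice against 2 cannot give an exact p below 0.333 and pooling the shared batches (3 against 2) cannot go below 0.1, a value that all 3 lineages reached, as did DCs and macrophages. Without mice 6 and 7 the exact permutation p was 0.0286 for each, the smallest that 3 against 4 allows. Neutrophils behaved differently by batch: in the shared batches they averaged 12% ± 5.36 in Pre-MET mice and 4.83% ± 3.80 in mice 6 and 7 (exact p = 0.3, overlapping), while 3 of the 4 mice sequenced in other batches had 19.4% to 25.0%.

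Since shares of a whole depend on each other, the lymphocytes were also counted against other denominators. Among immune cells other than monocytes, T cells were 45.3% ± 5.93 in Pre-MET and 44.4% ± 6.89 in relapse-free mice, a difference of 0.908 percentage points (exact permutation p = 0.929). Among T, NK and B cells together they were 68.2% and 62.4% (exact permutation p = 0.179), so that the direction turned. NK cells had the lower share in Pre-MET mice on all 3 denominators. They were 9.83% ± 4.07 against 18.6% ± 4.65 of the non-monocytes (exact permutation p = 0.0357, adjusted 0.214) and 14.4% ± 4.94 against 26.0% ± 4.97 of the lymphocytes (exact permutation p = 0.0119), without overlap in either. There were 4.26, 3.44 and 8.20 T cells per NK cell in the Pre-MET mice and 1.63 to 3.03 in the relapse-free mice. Monocytes per 100 lymphocytes were 187, 116 and 258 against 26.6 to 49.6. Absolute cell numbers per lung were not measured.

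**Figure D2:**
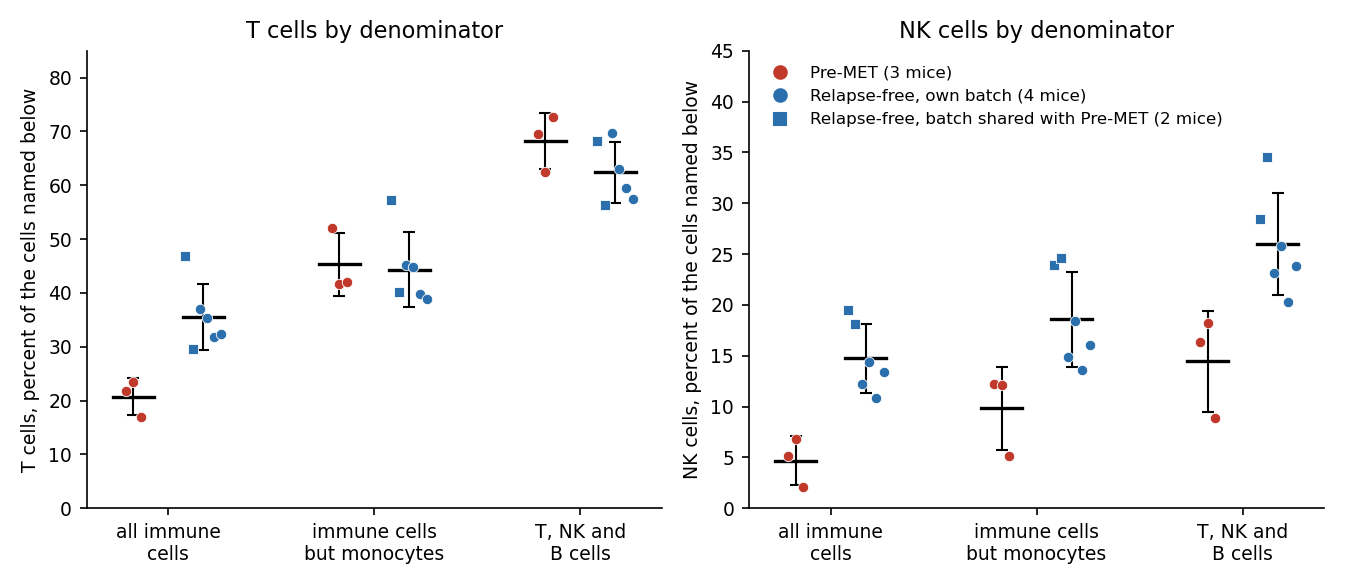
T cells (left) and NK cells (right) of each mouse as percent of all immune cells, of immune cells other than monocytes, and of T, NK and B cells together (linear axes); symbols and bars are as in the plot of lineages. The T cell groups overlap once monocytes are left out of the denominator, whereas the NK cell groups do not overlap on any of the 3.

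Within the monocytes the balance of the subpopulations differed too. Mon Fn1, the inflammatory subpopulation named for fibronectin, was 75.0%, 63.7% and 70.1% of the monocytes of Pre-MET mice 8, 9 and 10 and 35.0%, 41.6% and 48.2% as lowest, median and highest in relapse-free mice. Mon Ace, the subpopulation carrying the patrolling marker angiotensin-converting enzyme, was 18.2%, 26.0% and 23.7% against 30.0%, 39.5% and 50%. Neither subpopulation overlapped between the groups. The means were 69.6% ± 5.65 against 41.2% ± 5.28 for Mon Fn1 (exact permutation p = 0.0119, adjusted 0.131) and 22.6% ± 4.01 against 39.5% ± 7.78 for Mon Ace (exact permutation p = 0.0238, adjusted 0.175), with adjustment over the 22 subpopulations tested of 25 present. There were 4.12, 2.45 and 2.96 Mon Fn1 cells per Mon Ace cell in Pre-MET mice and 0.700 to 1.38 in relapse-free mice. In batch SB111 Mon Fn1 was 73.0% and 59.3% of monocytes against 43.2% and 35.6%, and in SB99 76.8%, 63.7% and 80.1% against 43.1%. Mon Ace was 18.0% and 34.3% against 43.2% and 45.8% in SB111, and 18.3%, 26.0% and 13.9% against 41.5% in SB99. The Mon Ace share of mouse 10 thus differed between its batches (34.3% and 13.9%), and its SB111 value lay within the relapse-free range of 30.0% to 50%. Without mice 6 and 7, Mon Fn1 kept an exact p at the smallest value possible (0.0286) and Mon Ace did not (0.0571). Mon Ace also missed the threshold without mouse 8 (exact p = 0.0714).

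Counted against all immune cells, both subpopulations were more frequent in Pre-MET lungs. Mon Fn1 was 43.8%, 27.8% and 42.0% of all immune cells against 5.92% to 9.69% (means 37.9% ± 8.77 and 8.25% ± 1.33, exact permutation p = 0.0119). Mon Ace was 10.6%, 11.3% and 14.2% against 6.08% to 11.9%, a mean difference of 4.09 percentage points (exact permutation p = 0.0476, adjusted 0.198), with overlapping groups. The lower share of Mon Ace within the monocytes therefore went with a higher, not a lower, share of the whole sample. Mon MHC-II, monocytes with antigen presentation genes, was 6.48% against 14.1% of monocytes (exact permutation p = 0.0833) but 3.42% against 2.94% of all immune cells (exact permutation p = 0.607).

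**Figure D3:**
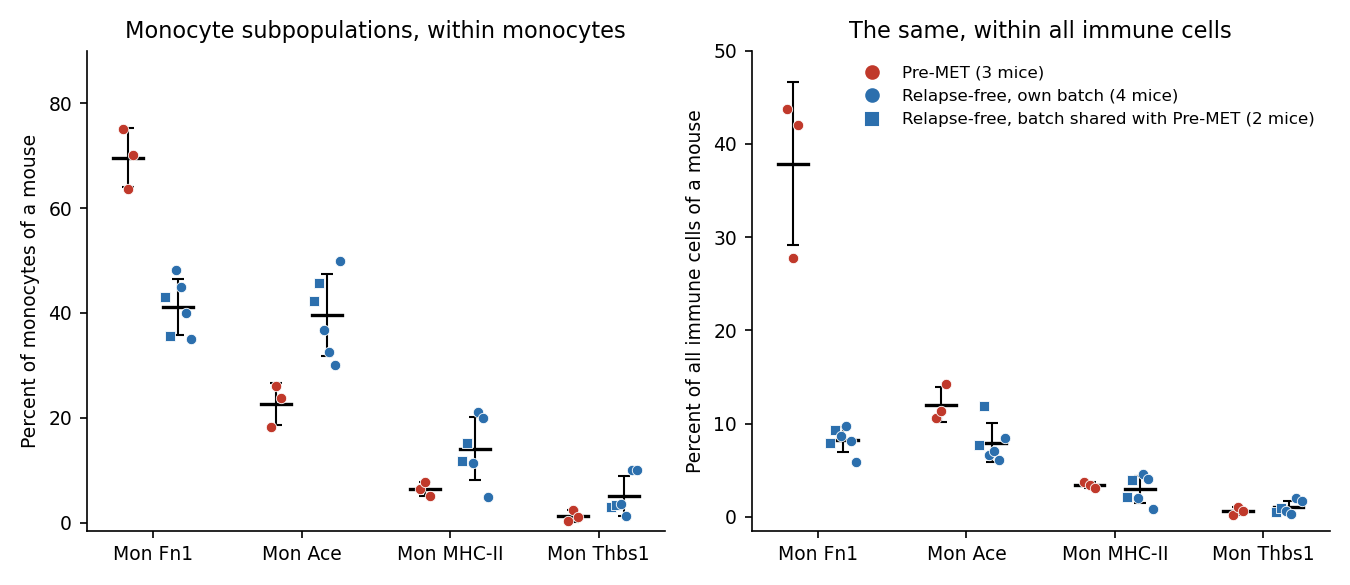
The 4 monocyte subpopulations as percent of the monocytes (left) and of all immune cells (right) of each mouse, on linear axes; symbols and bars are as in the plot of lineages. Mon Ace is lower in Pre-MET mice in the left panel (22.6% against 39.5%) and higher on average in the right panel (12% against 7.96%), and Mon Fn1 is higher in both.

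In all, 4 of the 22 subpopulations (18.2%) passed an unadjusted exact p of 0.05 within their lineage, and none did after adjustment. Even Mon Fn1, at the smallest exact p that 9 mice allow (0.0119), had an adjusted p of 0.131. The exact test could therefore hardly give a call after adjustment over 22 subpopulations. With cell numbers fitted in edgeR, Mon Fn1 (log2 fold change 0.75, edgeR adjusted p = 0.0158) and Mon Ace (-0.82, edgeR adjusted p = 0.0346) passed after adjustment. Besides the 2 monocyte subpopulations, those past the unadjusted threshold were plasmacytoid DCs, the interferon-producing DCs, and T CD8 Lag3, CD8 cells with an inhibitory receptor. Plasmacytoid DCs were 16.7%, 25.0% and 23.1% of the DCs in Pre-MET mice and 0% to 13.3% in relapse-free mice, yet this rested on 8 and 7 cells in all, and their share of all immune cells differed by 0.195 percentage points (exact permutation p = 0.345). T CD8 Lag3 was 1 of 290 T cells in Pre-MET mice against 18 of 1065, that is 0.340% ± 0.589 against 1.72% ± 0.720 (exact permutation p = 0.0357). Both missed the threshold without mouse 9 or without mouse 10 (exact p = 0.0714 in each case). As a share of all immune cells, the memory-like T CD4 S100a4 (2.58% against 5.05%, exact permutation p = 0.0238) and the granzyme K-expressing T CD8 Gzmk (2.57% against 5.75%, exact permutation p = 0.0357) were lower in Pre-MET lungs. The naive T CD4 Lef1 was 13.3% against 19.7% (exact permutation p = 0.0952). Within T cells none of these 3 passed, at 12.7% against 14.4%, 12.4% against 16.2%, and 63.9% against 55.0%. The neutrophil subpopulations varied widely between relapse-free mice: the prostaglandin synthase-expressing Neut Ptgs2 was 48.1%, 31.6% and 19.4% of Pre-MET neutrophils against 33.6% to 91.7% (exact permutation p = 0.232), and the granule-protein-rich Neut Lcn2 25.9%, 34.2% and 43.3% against 0% to 41.3% (exact permutation p = 0.196). Conventional NK Ncr1 cells were 97.1% and 96.1% of NK cells.

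Expression was then summed per mouse and lineage. Median depth per monocyte was 1140 to 1550 UMIs in Pre-MET mice and 734 to 2750 in relapse-free mice. In monocytes 2 of 6663 genes (0.03%) passed an adjusted p of 0.05 in edgeR's quasi-likelihood test, and both were lower in Pre-MET mice. Apoe encodes apolipoprotein E, a lipid carrier secreted by macrophages and by some monocytes (mm10 chromosome 7, 19696109 to 19699188, minus strand). It stood at 662, 570 and 575 CPM in Pre-MET mice 8, 9 and 10 and at 1450, 2670 and 3300 CPM as lowest, median and highest in the relapse-free mice. All 3 Pre-MET mice lay below all 6 relapse-free mice, with a log2 fold change of -1.96 (SE 0.29, edgeR adjusted p = 0.00298). The change was of the same size within the shared batches (-1.97, limma-voom adjusted p = 1.07e-05) and without mice 6 and 7 (-1.88, edgeR adjusted p = 0.00553). It missed the threshold without mouse 9 (edgeR adjusted p = 0.0935) or mouse 10 (0.0767).

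The subpopulations were then read one by one. In Mon Fn1 cells alone it was 234, 217 and 188 CPM in Pre-MET mice and 381, 1280 and 3500 CPM as lowest, median and highest in relapse-free mice, a log2 fold change of -2.66 (SE 0.43, edgeR adjusted p = 0.00116). It was the 1 gene of 4587 (0.0218%) past the threshold in that subpopulation. In Mon Ace cells the levels were higher and the groups overlapped, at 3690, 2000 and 1620 CPM against 2480 to 5570 CPM in the 5 relapse-free mice with enough cells (log2 fold change -0.77, SE 0.33, edgeR adjusted p = 0.996), and 0 of 2067 genes (0%) were past the threshold there, with 92 at an unadjusted p below 0.05. Mon Ace, in which Apoe was higher, also took the lower share of Pre-MET monocytes, and the part of that share in the lineage-wide difference was not tested. Whether the difference in Mon Fn1 is larger than that in Mon Ace was not tested. Alveolar macrophage markers in the monocyte sums, 8 listed, totalled 1400 to 2660 CPM in Pre-MET mice, with Krt79 and Fabp1 at 0, and 500 to 3520 CPM in relapse-free mice, with overlapping groups. Chil3, which inflammatory monocytes also express, is among the 8 and alone was at 1270 to 2390 CPM and 278 to 3290 CPM. The totals therefore do not separate macrophage RNA from monocyte RNA, and the part of macrophage RNA in the Apoe difference was not tested. The empty wells held 1 Apoe UMI of 1566.

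Cd74, the invariant chain that escorts MHC class II molecules to the endosome, was the second gene. Its level was 156, 112 and 102 CPM against 332, 587 and 1060 CPM, without overlap (log2 fold change -2.09, SE 0.36, edgeR adjusted p = 0.0119). This call depended on which cells and mice entered. With the Mon MHC-II cells left out the log2 fold change was -1.61 (edgeR adjusted p = 0.455), without Pre-MET mouse 8, 9 or 10 the edgeR adjusted p was 0.0623, 0.378 or 0.244, and inside Mon Fn1 (-1.36) and Mon Ace (-1.56) Cd74 did not pass (edgeR adjusted p = 0.994 and 0.944). Of the 8 listed MHC class II genes, Cd74 among them, 7 were tested, all 7 had a log2 fold change below 0, and their median was -1.21 against 0.03 over all 6663 genes. The peptide-loading genes H2-DMa (-0.52) and H2-DMb1 (-0.51) and the transactivator Ciita (-0.05) lay nearest to 0. H2-Aa (327, 314 and 337 CPM against 231, 900 and 1750 CPM, log2 fold change -1.34, edgeR adjusted p = 0.541) and H2-Ab1 (681, 665 and 1440 CPM against 660, 2310 and 4080 CPM, -1.27, edgeR adjusted p = 0.615) did not pass alone. In both the exception was relapse-free mouse 35, whose level was as low as in Pre-MET mice. B cell and DC markers, which travel with these genes, totalled 178 to 198 and 176 to 221 CPM in Pre-MET monocytes and 71.8 to 328 and 80.1 to 287 CPM in relapse-free monocytes.

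**Figure D4:**
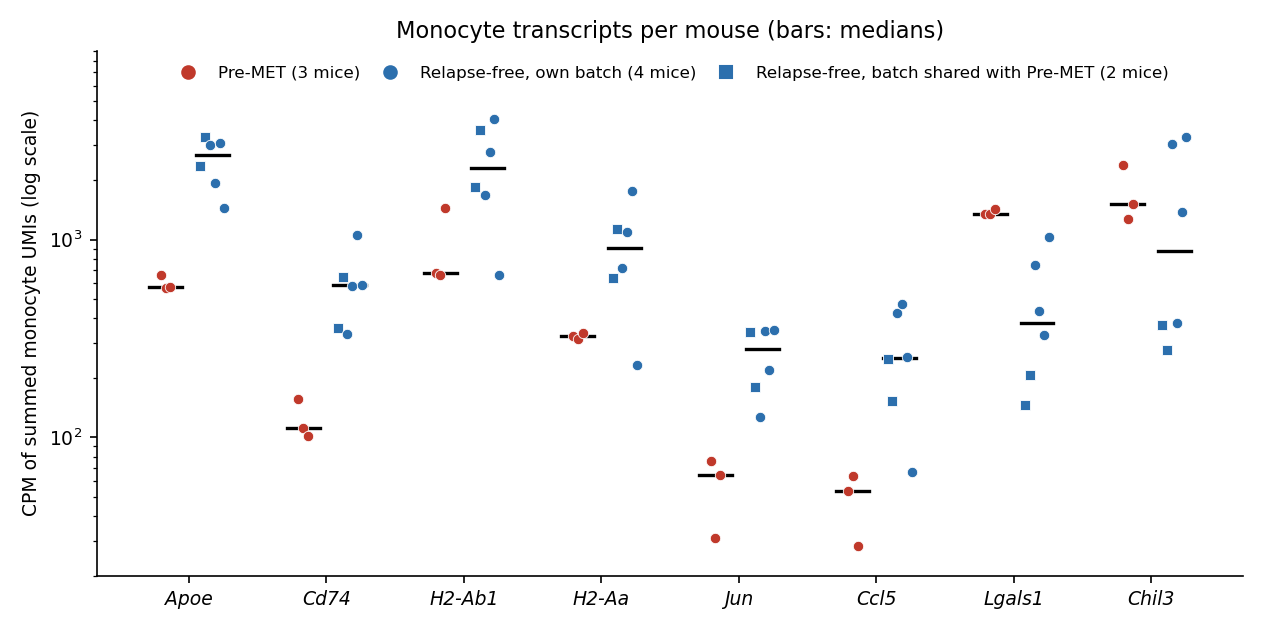
Level of 8 genes in the summed monocytes of each mouse (CPM, log axis), with bars at the median of each group and symbols as in the plot of lineages. Apoe, Cd74, Jun and Ccl5 are lower in all 3 Pre-MET mice than in any relapse-free mouse and Lgals1 is higher, while H2-Ab1, H2-Aa and Chil3 overlap; only Apoe and Cd74 passed the threshold over all mice.

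At an unadjusted edgeR p below 0.05, 181 monocyte genes were higher (2.72%) and 174 lower (2.61%) in Pre-MET mice, and 228 (3.42%) did not overlap between the groups. With RLE size factors, which move the median of all genes from 0.03 to -0.05, 132 were higher and 217 lower. Gene lists were read against these shares. Among 14 immediate early genes, transcription factors and feedback regulators induced within minutes of a stimulus, all had a log2 fold change below 0, with a median of -0.79, and 9 were lower at an unadjusted p below 0.05. Jun was at 75.7, 30.9 and 64.3 CPM against 127, 280 and 350 CPM (log2 fold change -2.13, SE 0.44, edgeR adjusted p = 0.122), without overlap. Fos, the most abundant of them, was at 3110, 2620 and 2860 CPM against 2840, 3280 and 5340 CPM (-0.25, edgeR adjusted p = 0.93). Of 10 heat shock genes, chaperones of unfolded proteins, 9 were below 0 (median -0.67) and 4 were lower at an unadjusted p below 0.05, among them Hspa1a (-3.09, edgeR adjusted p = 0.436). Both lists are known to respond to tissue dissociation, whose part was not tested.

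Other lists concerned monocyte identity and inflammation. Of 15 inflammatory monocyte genes, 12 had a log2 fold change above 0 with a median of 0.20, and Plac8 (4850, 3590 and 4170 CPM against 2510, 3780 and 5250 CPM) and Ccr2 (471, 409 and 605 CPM against 341, 640 and 1070 CPM) lay within the relapse-free range in all 3 Pre-MET mice. Of 13 patrolling monocyte genes, 10 were below 0 with a median of -0.49, beside the lower Mon Ace share of 22.6% against 39.5% of monocytes. Inside Mon Ace the same 13 genes had a median of -0.12 with 8 below 0, and inside Mon Fn1 the 11 tested had a median of 0.08. Immediate early genes had medians of -0.77 in Mon Fn1 (13 tested) and -0.47 in Mon Ace (11 tested), and MHC class II genes of -0.70 (6 tested) and -0.31 (5 tested). The inflammatory list had a median of 0.08 inside Mon Fn1 (15 tested). The part of the Mon Ace and Mon Fn1 shares in the lineage-wide medians was not tested further. S100 genes, which encode calcium-binding proteins of motile myeloid cells, had a median of 0.50 with 6 of 7 above 0, and 4 were higher at an unadjusted p below 0.05 (2 with RLE size factors), for example S100a4 (2400, 2340 and 2080 CPM against 1190, 1470 and 2330 CPM, log2 fold change 0.56, edgeR adjusted p = 0.906). The 34 tested of 37 type I interferon response genes had a median of -0.34, with none past an unadjusted p of 0.05 in either direction (1 lower with RLE size factors). All 7 interferon-gamma GTPase genes tested of 12 listed were below 0 (median -0.85), with Irgm1 lower at an unadjusted p below 0.05. All 11 MHC class I genes tested of 12 listed were below 0 too (median -0.36). H2-K1 and H2-Q6 were lower at an unadjusted p below 0.05 (3 genes with RLE size factors). The 8 chemokine genes tested had a median of -0.61, and 3 were lower at that level (Ccl5, Cxcl2 and Cxcl10), while Ccl6, a ligand made in abundance by lung myeloid cells, was at 2200, 2300 and 1720 CPM against 1680, 2310 and 3280 CPM (-0.08, edgeR adjusted p = 0.99). Among 6 cell cycle genes Birc5 (3.77, edgeR adjusted p = 0.274) and Mki67 (2.44, edgeR adjusted p = 0.825) were higher at an unadjusted p below 0.05.

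**Figure D5:**
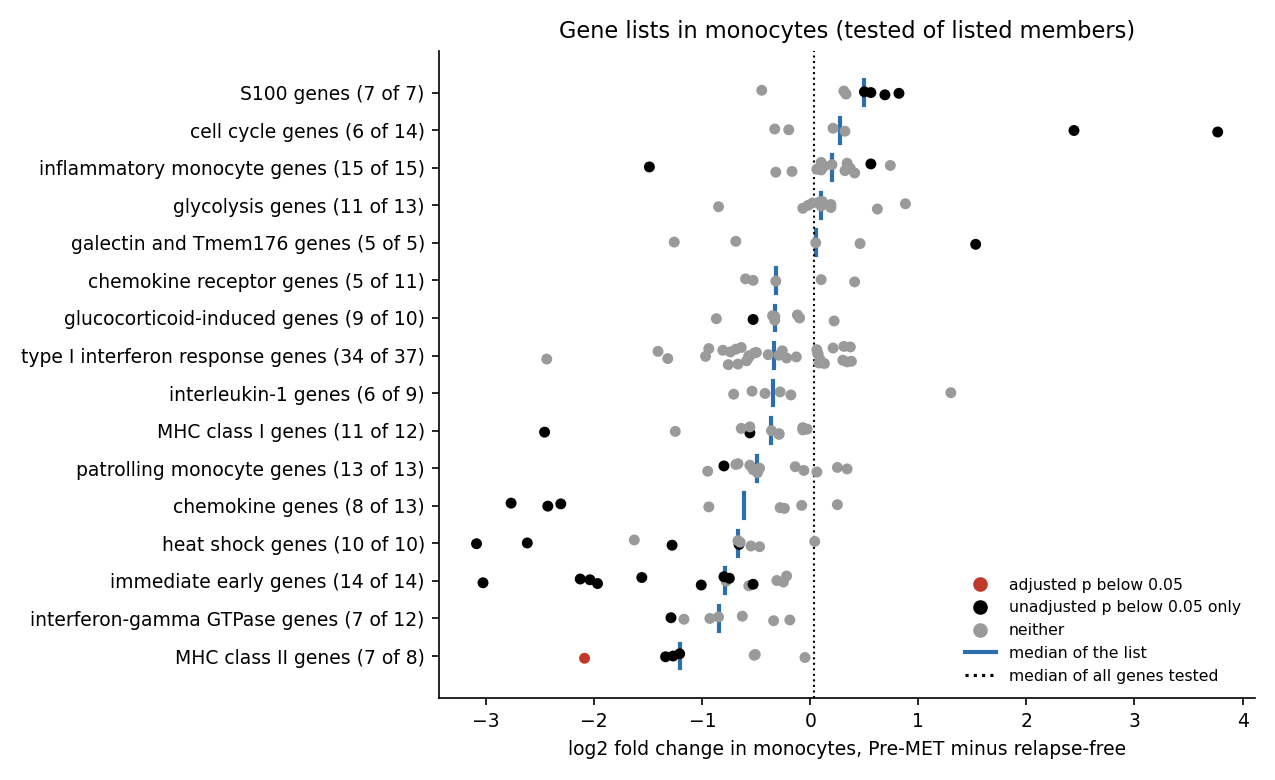
Log2 fold change (Pre-MET minus relapse-free) of every tested member of 16 gene lists in monocytes, with the list median as a blue bar and the median of all 6663 genes (0.03) as a dotted line; red marks an adjusted p below 0.05, black an unadjusted p below 0.05 only. MHC class I, MHC class II, interferon-gamma GTPase and immediate early genes are all on the left of 0, and S100 genes mostly on the right.

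Within the 2 shared batches, with batch as a term and the mouse as a random effect in limma-voom, 24 of 3366 monocyte genes (0.713%) passed an adjusted p of 0.05, 8 higher and 16 lower. Apoe and Cd74 were among them. This fit took 1 sum per mouse and batch, and mice 6, 8 and 10 entered it in both batches. It thus counted more sums than mice, and its p-values may be too small. Its 2 relapse-free animals were mice 6 and 7, for which it is not known whether they are among the study's control mice. With 1 sum per mouse over both batches, edgeR called 6 of 6325 genes, 2 higher and 4 lower. The values over all 9 mice share 5 mice with the comparison within the batches and are given as a description. Lgals1, which encodes the sugar-binding protein galectin-1, was the first of the 8 genes higher in Pre-MET mice in limma-voom. It was at 1350, 1350 and 1420 CPM against 146 and 207 CPM in mice 6 and 7 (log2 fold change 2.93, limma-voom adjusted p = 7.67e-05). The 4 relapse-free mice of other batches were at 328 to 1030 CPM, still below all Pre-MET mice, and over all mice the log2 fold change was 1.53 (SE 0.39, edgeR adjusted p = 0.43). Inside Mon Fn1, the subpopulation with the higher share in Pre-MET mice, Lgals1 was at 1570, 1760 and 1770 CPM against 249 to 1410 CPM (1.44, SE 0.37, edgeR adjusted p = 0.261), and inside Mon Ace at 383, 228 and 307 CPM against 38.1 to 760 CPM (0.05, SE 0.65, edgeR adjusted p = 0.997). The difference between these 2 values was not tested. Anxa1, an annexin that restrains neutrophil entry, likewise did not overlap, at 959, 1000 and 1030 CPM against 255 to 828 CPM (within batches 1.49, limma-voom adjusted p = 0.0126). Over all mice its log2 fold change was 0.95 (edgeR adjusted p = 0.615).

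Some genes higher within the batches reached Pre-MET levels in part of the relapse-free mice of the remaining batches. Chil3, a chitinase-like protein of inflammatory monocytes and alveolar macrophages, was at 2390, 1270 and 1510 CPM against 371 and 278 CPM in mice 6 and 7 (2.42, limma-voom adjusted p = 0.000225), but at 378 CPM in mouse 18 and at 1380 to 3290 CPM in the other 3 relapse-free mice. S100a8, a neutrophil and monocyte alarmin, was at 879, 724 and 1590 CPM against 94.7 and 350 CPM (2.63, limma-voom adjusted p = 0.0228), and at 403 to 2400 CPM in the other 4. Neutrophil markers in the monocyte sums totalled 1060 to 2000 CPM in Pre-MET mice and 204 to 3570 CPM in relapse-free mice. S100a8 is itself among these 6 markers, here and in the T cell sums. The totals thus follow it in part and are no separate reading of neutrophil RNA. In T cells, S100a8 was at 465, 704 and 642 CPM in Pre-MET mice and at 82.0 and 108 CPM in mice 6 and 7. Neutrophil markers in the T cell sums totalled 643 to 1110 CPM in Pre-MET mice. Over all 6 relapse-free mice they totalled 123 to 3280 CPM, so that the groups overlapped. The part of neutrophil RNA in the monocyte value was not tested. Over all mice the monocyte log2 fold changes of Chil3 and S100a8 were 0.32 and 0.31 (edgeR adjusted p = 0.966 and 0.963). Among the 16 lower genes, Ccl5, Cdkn1a, Jun, Nr4a2 and Rel did not overlap over all mice. Ccl5, a T cell and monocyte chemoattractant, was at 53.7, 64.1 and 28.4 CPM against 66.7 to 475 CPM (within batches -2.54, limma-voom adjusted p = 0.00338). Cdkn1a, a cell cycle inhibitor, was at 388, 323 and 541 CPM against 587 to 1640 CPM (within batches -1.37, limma-voom adjusted p = 0.00176). Over all mice the log2 fold changes were -2.43 for Ccl5 (edgeR adjusted p = 0.154) and -1.21 for Cdkn1a (edgeR adjusted p = 0.436). NK cells held far more Ccl5 (20700 to 32500 CPM in Pre-MET and 16000 to 34900 CPM in relapse-free mice), and 6 NK cell markers in the monocyte sums totalled 1.89 to 7.32 CPM and 8.98 to 39.9 CPM, moving with Ccl5. In the empty wells 13 of 1566 UMIs were Ccl5. The part of both in its difference was not tested. These genes are named because they passed within the shared batches, after their values were seen.

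In T cells 0 of 2858 genes (0%) passed an adjusted p of 0.05 in edgeR, with 84 higher (2.94%) and 178 lower (6.23%) at an unadjusted p below 0.05, and DESeq2 called 2. In CPM 163 of the 2858 genes did not overlap between the groups. The gene of smallest p was Id2, a transcriptional regulator of effector and memory lymphocytes, at 143, 208 and 74.1 CPM against 486, 640 and 804 CPM, without overlap (log2 fold change -2.14, SE 0.39, edgeR adjusted p = 0.0518). Ccl4, a chemokine of activated CD8 T cells, had 0 UMIs in the Pre-MET T cells and 18.9 to 432 CPM in relapse-free T cells, at least 8.45-fold lower when 3 UMIs over the group are taken as the floor (edgeR adjusted p = 0.199). Cst7, an inhibitor of granule proteases, was at 11.9, 0 and 12.4 CPM against 55.9 to 230 CPM (edgeR adjusted p = 0.112). Ccm2, at 11.9, 0 and 37.1 CPM against 108 to 191 CPM (-3.29, edgeR adjusted p = 0.199), and Upf2, with 0 UMIs in Pre-MET mice and at least 7.44-fold lower (edgeR adjusted p = 0.534), completed the 5 of smallest p. Removing mice 6 and 7 raised the count to 9 genes, 6 higher and 3 lower, and the batch-term fit in the shared batches called 0 of 1372, with 86 at an unadjusted p below 0.05.

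Most T cell lists had negative medians. An exception was the interferon-gamma GTPase list, with 3 of 4 tested genes above 0 and a median of 0.77, in which Gbp7 was at 179, 152 and 173 CPM against 44.7 to 135 CPM (1.02, edgeR adjusted p = 0.535). Immediate early genes (7 of 7 tested below 0, median -0.72), heat shock genes (6 of 6, -0.53), regulatory T cell genes (4 of 4, -0.72) and MHC class I genes (8 of 9, -0.52) lay below 0 together with the effector lists. All 9 cytotoxic effector genes tested of 13 had a log2 fold change below 0 (median -1.10, against -0.05 over all genes) and 3 were lower at an unadjusted p below 0.05, among them Ccl5 (4050, 3500 and 1580 CPM against 2530, 5070 and 14800 CPM, -1.08, edgeR adjusted p = 0.534). All 13 activated and memory genes tested of 16 were below 0 (median -0.81), with 5 lower, including Lgals1 (1230, 456 and 593 CPM against 619, 1460 and 3850 CPM). The log2 fold change of Lgals1 was -1.29 in T cells (edgeR adjusted p = 0.534) and 1.53 in monocytes, and their difference was not tested. Naive T cell genes had a median of 0.00 over 11 tested, with Ccr7, a lymph node homing receptor, at 238, 320 and 247 CPM against 201, 383 and 868 CPM. Killer cell receptor genes, 4 tested of 14, were all below 0 (median -1.03). The naive T CD4 Lef1 cells were 63.9% of Pre-MET and 55.0% of relapse-free T cells, and NK cell markers in the T cell sums totalled 161 to 280 CPM in Pre-MET and 115 to 708 CPM in relapse-free mice. The part of both in these list values was not tested. Inside T CD4 Lef1 0 of 2073 genes and inside T CD8 Gzmk 0 of 727 (0% in each) passed in edgeR, with 117 and 54 at an unadjusted p below 0.05.

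NK cells were few in Pre-MET mice, with 23, 32 and 10 cells and a median depth of 761 to 975 UMIs per cell, against 660 to 1760 in relapse-free mice. In edgeR 0 of 1655 genes (0%) passed, with 26 higher (1.57%) and 122 lower (7.37%) at an unadjusted p below 0.05, and DESeq2 called 1. In CPM 108 of the 1655 genes did not overlap between the groups. The median log2 fold change over all genes was -0.18, and with another scaling (RLE size factors) -0.03, where 49 genes were higher and 100 lower at an unadjusted p below 0.05. Log2 fold changes of NK cells thus depend on the scaling. The levels in CPM are scaled to the total of each sum, without the TMM or RLE factors. The TMM factors of the NK cell sums ran from 0.853 (relapse-free mouse 35) to 1.216 (Pre-MET mouse 10). Overlap of the groups is read in CPM. Of 10 cytotoxic effector genes tested of 13, 8 had a log2 fold change below 0 (median -0.53), or 7 with RLE size factors (median -0.38). Ccl4 (-1.35, edgeR adjusted p = 0.311) and Fasl (-1.41, edgeR adjusted p = 0.4) were lower at an unadjusted p below 0.05. Nkg7, a granule membrane protein, lay the other way without overlap, at 13100, 12000 and 11100 CPM against 7840 to 10800 CPM (0.12, edgeR adjusted p = 0.926). Gzma, a granzyme, was at 15300, 13400 and 12500 CPM against 9690, 12600 and 15000 CPM (-0.13 with TMM scaling, SE 0.24, edgeR adjusted p = 0.905, and 0.02 with RLE size factors), and the 14 killer cell receptor genes, all tested, had a median of 0.07 with none past an unadjusted p of 0.05 (0.21 and 1 higher with RLE size factors). Of these only Klrc2, an activating receptor, did not overlap, at 916, 755 and 1240 CPM against 94.4 to 702 CPM (0.93, edgeR adjusted p = 0.585). Klrk1, which encodes the activating receptor NKG2D, was at 1370, 1510 and 1240 CPM against 1080, 1470 and 2460 CPM. The 5 heat shock genes tested were all below 0 (median -1.31), with Hsp90ab1 at 779, 755 and 721 CPM against 979, 1460 and 1790 CPM (-1.14, SE 0.40, edgeR adjusted p = 0.34). The gene of smallest p was Srp19, a subunit of the signal recognition particle, at 275, 104 and 0 CPM against 591, 775 and 855 CPM (edgeR adjusted p = 0.156). Sec61a1, of the channel that takes up secreted proteins, and Tgoln1, a Golgi protein, had 0 UMIs in Pre-MET NK cells and were at least 4.87-fold and 4.84-fold lower at a floor of 3 UMIs (edgeR adjusted p = 0.156 and 0.193). Zcchc2, also with 0 UMIs, was at least 4.55-fold lower, and Tpm3-rs7 was at 91.6, 26.0 and 103 CPM against 258 to 553 CPM (edgeR adjusted p = 0.202 for both). Inside NK Ncr1 0 of 1519 genes (0%) passed in edgeR, with 118 at an unadjusted p below 0.05.

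In neutrophils, compared over 3 Pre-MET and 5 relapse-free mice because mouse 29 had none, 0 of 1153 genes (0%) passed in edgeR or in DESeq2, with 21 higher (1.82%) and 41 lower (3.56%) at an unadjusted edgeR p below 0.05. In CPM 68 of the 1153 genes did not overlap between the groups. The 5 genes of smallest p all had an edgeR adjusted p of 0.548. Ccl5 was at 81.5, 101 and 56.7 CPM against 148 to 1670 CPM (-2.68, SE 0.79), and Phf20l1 at 0, 14.5 and 14.2 CPM against 123 to 439 CPM (-4.08), both without overlap. Lymphocyte markers moved with Ccl5 in the neutrophil sums: the 6 NK cell markers were all at 0 in Pre-MET mice and totalled 0 to 263 CPM (median 38.0) in relapse-free mice, and the 6 T cell markers totalled 0 to 43.4 CPM (median 14.2, with Cd3e, Cd28 and Lat at 0) and 0 to 351 CPM (median 121). Their part was not tested. Ccl4 (-2.48) and the pseudogene Hmgb1-ps8 (-4.97), whose reads may be shared with Hmgb1, overlapped, and Gm7676 was at 2530, 2650 and 2630 CPM against 308 to 1560 CPM (1.44). S100a8 and S100a9, the subunits of calprotectin, were the most abundant listed genes and overlapped, at 114000, 145000 and 175000 CPM against 44300, 94900 and 138000 CPM for S100a8 (0.70, SE 0.45, edgeR adjusted p = 0.981). The 21 type I interferon response genes tested had a median log2 fold change of 0.47 against -0.03 over all genes, with Cmpk2 and Slfn5 higher at an unadjusted p below 0.05. Neut Ifit3, the subpopulation named for a gene of this list, was 31% of Pre-MET and 18.7% of relapse-free neutrophils (exact permutation p = 0.268). Its part in this median was not tested. Of 13 immediate early genes tested, 10 were below 0 (median -0.59) and 3 were lower at an unadjusted p below 0.05. Secondary and tertiary granule genes had a median of -0.70 over 9 tested, and mature neutrophil genes of -0.38 over 14, with Ptgs2 at 448, 941 and 751 CPM against 1210, 2190 and 2740 CPM (-1.31, edgeR adjusted p = 0.608). Il1b, an inflammatory cytokine, was at 18000, 15300 and 12400 CPM against 11700, 13900 and 20400 CPM (0.11, edgeR adjusted p = 0.981). Inside Neut Ptgs2 0 of 291 genes (0%) passed in edgeR, with 18 at an unadjusted p below 0.05.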

How the data were processed

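SPID-seq, a plate-based single-cell RNA-seq method, was used by the authors. Reads were demultiplexed with bcl2fastq 2.15.0.4 per the submitters' processing notes and mapped with HISAT to mm10, keeping uniquely mapped exonic reads. The authors deposited UMI counts per gene and well, not normalized, for each plate, and a table of wells with sequencing batch and cell annotation (MetaCell). Annotated cells had at least 500 UMIs. Overlapping genes of a strand share a concatenated symbol. Of 52634 rows, 92 spike-ins were left out.

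Counts were summed per mouse and lineage (mice with at least 10 cells) and tested in R 4.3.3 with edgeR 4.0.16 (quasi-likelihood F test, TMM, filterByExpr, Benjamini-Hochberg). DESeq2 1.42.0 and limma 3.58.1 (voom, batch as a term, 1 sum per mouse and batch) were the alternatives. Shares were tested in Python 3.11.15 by two-sided exact permutation over mice, with at least 5 cells of a lineage for subpopulations, and called at an unadjusted p below 0.05. Macrophage subpopulations were untested, since 1 Pre-MET mouse reached 5 macrophages. Levels (CPM) are counts scaled to the total of a sum. Scripts were tested on simulated data. Intervals and floors (3 counts, 95% level) cover counting error only. Whether mice of a group shared a cage or litter is not given.

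Named genes were called genes without overlap (up to 8 rises and 8 falls), called list members, the 2 members of each list with the highest level and, in a lineage without calls, the 5 of smallest p. Other list members were named after their values were seen. Members and lists were chosen with earlier results of these data known. Positions are from GENCODE on mm10.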

Additional observations from a re-analysis of the deposited data

Results flagged for a closer look

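Among 64 groups of shares of relapse-free mice, 4 held a mouse whose gap to the nearest other mouse exceeded the 95% critical value for its group size, and chance flags about 1 in 20 groups. Mouse 7 had the lowest share of T CD4 Lef1 among its T cells, 38.8% (26 of 67 cells). Mouse 29, the mouse of lowest yield, had 87.5% NK Ncr1 (14 of 16 NK cells) and correspondingly 12.5% NK Xcl1 (2 of 16). Mouse 11 had 3.70% Mac Gpnmb (1 of 27 macrophages), where the others with at least 5 macrophages had 0.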

How the results depend on the processing

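No paired analysis was possible because the groups are different mice, with replicate numbers that carry no pairing. Of 132 lineage values under an alternative, 121 were counted as unchanged, as were 366 of 411 subpopulation values and 2122 of 2343 named-gene values. For a called share, unchanged meant the same direction and side of the threshold where the setting could reach it. A sign change of an uncalled share counted only when the move exceeded 1 SD within the groups and the denominator was the same. Where the threshold was out of reach, as in the shared batches, unchanged meant a move below 1 SD. For the differences in shares, the NK cell value with cells of at least 1000 UMIs was -9.23 points, and leaving out a mouse moved the T cell value from -16.2 to -12.5 points. Batch SB111 alone gave 9.06 for neutrophils, -20.4 for T cells and -16.3 for NK cells, SB99 alone -25.4 for T cells, -14.2 for NK cells and 2.56 for B cells, and both pooled -14.2 for NK cells. T cells turned to 5.77 points among lymphocytes and 0.908 among non-monocytes, a denominator chosen after seeing the data that left 1 lineage call. Of all immune cells, Mon Ace turned to 4.09 and NK Ncr1 to -9.69.

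Subpopulation calls were 2 with at least 1000 UMIs, 2 to 5 without 1 mouse and 1 without mice 6 and 7, a setting also added later. Monocyte genes called were 5 by DESeq2, 15 unfiltered, 1 with at least 1000 UMIs, 6 in the shared batches pooled, 24 by limma-voom, 1 without Mon MHC-II cells (added later) and 0 to 8 without 1 mouse (0 without mouse 9 or 10, 1 without mouse 8, 3 without mouse 7 or 11, 8 without mouse 35). T cell genes were 2 by DESeq2, 3 unfiltered, 1 with GFP-negative plates added, 1 in the shared batches, 9 without mice 6 and 7 and 0 to 1 without 1 mouse (1 without mouse 35). NK cell genes were 1 by DESeq2 and 0 to 5 without 1 mouse (5 without mouse 8). Mon Fn1 genes were 5 unfiltered, 13 in the shared batches, 2 without mice 6 and 7 and 1 to 5 without 1 mouse (2 without mouse 11, 5 without mouse 35), T CD8 Gzmk genes 2 unfiltered, and NK Ncr1 genes 0 to 6 without 1 mouse (2 without mouse 8, 6 without mouse 9). S100a8 in T cells turned to 2.63 on the log2 scale in the shared batches. The causes were not tested, beyond the fewer mice or cells of each setting. The limma-voom fit gave no estimate of the correlation within a mouse for NK cells, and neutrophils had too few sums per batch for it, so that both have no value. The NK cell sums of Pre-MET mice rested on 10 to 32 cells each.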

Other observations

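In lineages outside the 4 compared, levels of the leading monocyte genes are given as values only. Cd74 was at 870, 917 and 1630 CPM as lowest, median and highest in B cells of Pre-MET mice and at 1480, 2770 and 8190 CPM in those of relapse-free mice. In DCs Cd74 was at 1030, 1490 and 2140 CPM against 1510, 3320 and 4460 CPM. Lgals1 in DCs was at 1730, 2580 and 3300 CPM against 769, 892 and 1480 CPM, without overlap, over 3 Pre-MET mice and the 5 relapse-free mice with at least 10 DCs. Apoe in B cells was at 50.9, 186 and 263 CPM against 103, 245 and 1320 CPM. These levels were chosen after the monocyte values were seen and were not tested.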
